A study of Mus musculus with 6 samples.

Results

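The 78 genes described here encode mitochondrial ribosomal proteins and were chosen by a rule on their annotation, as every protein-coding gene of the deposited table whose symbol begins with Mrpl or Mrps and a number (78 of 54532 genes). Expression was measured by RNA sequencing of mouse bone marrow-derived macrophages (BMDMs) that had shared a culture with ID8, an ovarian cancer cell line of the mouse. The ID8 cells had received cisplatin, a DNA-crosslinking platinum drug, at 40 µM in 3 libraries, and phosphate-buffered saline (PBS) in 3 libraries. The labels call the sequenced cells BMDM, whereas the methods describe marrow monocytes recovered after the co-culture, and how they were separated from ID8 cells is not given in the sources used here. The marrow cells came from C57BL/6 mice of 6 to 8 weeks with no transgene or deletion named, and every library, controls included, came from a co-culture with ID8 cells. The comparison asks how the tumour cells' exposure to the drug altered the transcriptome of the co-cultured cells.

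Mitochondria keep a small genome of their own, and its messenger RNAs (mRNAs), which all encode subunits of the respiratory chain and the ATP synthase, are translated inside the organelle by a dedicated ribosome. The RNA of this mitoribosome is made from mitochondrial DNA, whereas its proteins are encoded in the nucleus, translated in the cytosol and imported, so that each subunit draws on both genomes. Many of these proteins descend from those of bacterial ribosomes and others were added during the evolution of mitochondria. The small subunit reads the mRNA and the large subunit joins the amino acids.

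By their known place in the ribosome, 26 of the 78 products belong to the small subunit and 51 to the large subunit. The large subunit includes 2 proteins with small subunit names, Mrps30 and Mrps18a. Mrps36 is now known as a component of the 2-oxoglutarate dehydrogenase complex and was counted in neither subunit. The genes lay on 17 chromosomes, with 11 on chromosome 11 and 8 on chromosome 17.

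The libraries held between 15776238 and 17924686 reads, recovered from the FPKM values (fragment counts corrected for gene length and library size) and the gene lengths. The read total that the FPKM were divided by, worked out in the same way, was 97.4% to 98.7% of these reads in PBS libraries and 103.7% to 104.1% in cisplatin libraries, for a reason that the sources used here do not give. With scaling to the recovered reads instead, the median of all tested genes was 0.073 on the log2 scale and 44 members rose and 7 fell (all tested genes 38.2% and 31.3%). Log values correlated at 0.984 to 0.989 (Pearson's r across genes) within groups and at 0.871 to 0.877 between groups. The study's methods speak of biological replicates, but neither they nor the labels say whether libraries came from separate cultures or animals, so p-values measure the spread between these samples, which may be technical. The cell type label was checked against markers. All 10 macrophage markers were detected and rose, with summed levels of 1639 to 1650 FPKM with PBS and 4194 to 4348 FPKM with cisplatin. The libraries also held RNA of ID8 type: of 17 keratin, mesothelial and matrix genes, 12 passed the filter on low values and all 12 fell, and the summed level of the 17 was 1340 to 1450 FPKM with PBS and 250 to 273 FPKM with cisplatin. None of these markers was at 0 in all libraries. Markers of neutrophils and progenitors rose in 10 of 10 genes (4814 to 4978 FPKM with PBS, 9100.0 to 9362 FPKM with cisplatin). Whether these marker changes reflect cell make-up or RNA per cell was not tested, nor was their part in the results that follow.

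Every member but Mrpl53 was detected, at moderate FPKM levels that spanned a 14.5-fold range. Mean levels over the 6 libraries ran from 2.41 FPKM for Mrps35 to 34.9 FPKM for Mrpl43, with a median of 10.5 FPKM. Each detected member was covered by 90 to 1307 reads per library. FPKM depend on the gene length of the table, which was 8631 bases for Mrps35 and 1213 bases for Mrpl43. In reads per library these genes lay closer together, at 298 to 405 for Mrps35 and 616 to 845 for Mrpl43. After Mrpl43, a mitochondria-specific protein of the large subunit, the highest mean levels belonged to Mrpl2, which lies near the site of peptide bond formation (29.2 FPKM), and Mrps21 of the small subunit (28.8 FPKM). Mrpl48 and Mrps25, listed at 8152 and 6576 bases, followed Mrps35 at the low end with 2.57 and 2.59 FPKM. Mrpl53 was listed at 0 in all 6 libraries. On GENCODE release M21, 88.0% of its exonic bases also belong to the genes Gm42688 and Ccdc142os, and how shared reads were counted is not given in the sources used here.

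On the scale of the deposited values most members were higher when the ID8 cells had seen cisplatin, by small steps, a direction that turned when libraries were scaled to Y-linked genes. Of the 77 members that passed the filter on low values (at least 1 FPKM in at least 3 libraries), 40 rose and 10 fell at an adjusted p under 0.05 (limma on log2(FPKM + 1), Benjamini-Hochberg adjustment over 13441 genes), and 27 did not pass the test. Among all tested genes 32.9% rose and 35.1% fell, so the share of members that rose (51.9%) stood above the background and the share that fell (13.0%) below it. The median log2 fold change of the 77 members was 0.23, against -0.0011 over all tested genes. With limma on the FPKM values, 0 members rose by at least 2-fold (background 4.67%) and 1 member, Mrpl14, fell by at least 2-fold (background 11.3%). Limma voom on recovered reads gave the same counts, with a background of 15.1% for such falls, and some other settings gave different ones, as listed further below. All log2 fold changes are cisplatin minus PBS of log2(FPKM + 1), and the added 1 makes the changes of low genes look smaller than they are.

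The directions given here for members, lists and markers are relative to the rest of the RNA in each library. When each library was scaled instead to 4 genes of the Y chromosome, which ID8 cells, from a female mouse, do not carry, the median log2 fold change of all tested genes shifted to -0.83. That of the members became -0.66, and 0 members rose (against 3.71% of all tested genes with that scaling) and 73 of 77 fell (94.8%, against 82.6%). The 4 genes had log2 fold changes of 0.55 to 1.15 before this scaling, so the scale depends on which of them is used. Any RNA of members from ID8 cells is divided by this scale too. Which cells the members' RNA came from was not tested. With a loess trend on gene length removed, 49 rose (63.6%, against 41.2% of all tested genes) and 5 fell (6.49%, against 28.7%). Set against the median of all tested genes, the members' median was higher under every setting that was run, by between 0.17 and 0.27 on the log2 scale. A factor applied to a whole library cancels in this difference apart from the added 1, so the scalings could hardly change it. Settings that alter only the test or add the replicate block leave it unchanged. In these bulk samples, fewer cells of a type and less RNA per cell cannot be told apart.

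The cisplatin libraries lay entirely above the PBS libraries for 42 members (54.5%, background 35.2%) and entirely below them for 13 (16.9%, background 37.2%), and the groups overlapped for 22. Members together took 0.181% to 0.192% of the reads of a PBS library and 0.219% of each cisplatin library. The plot of members ordered by change shows a gradual slope, with a gap beside the largest rise and a wider one beside the largest fall.

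**Figure D1:**
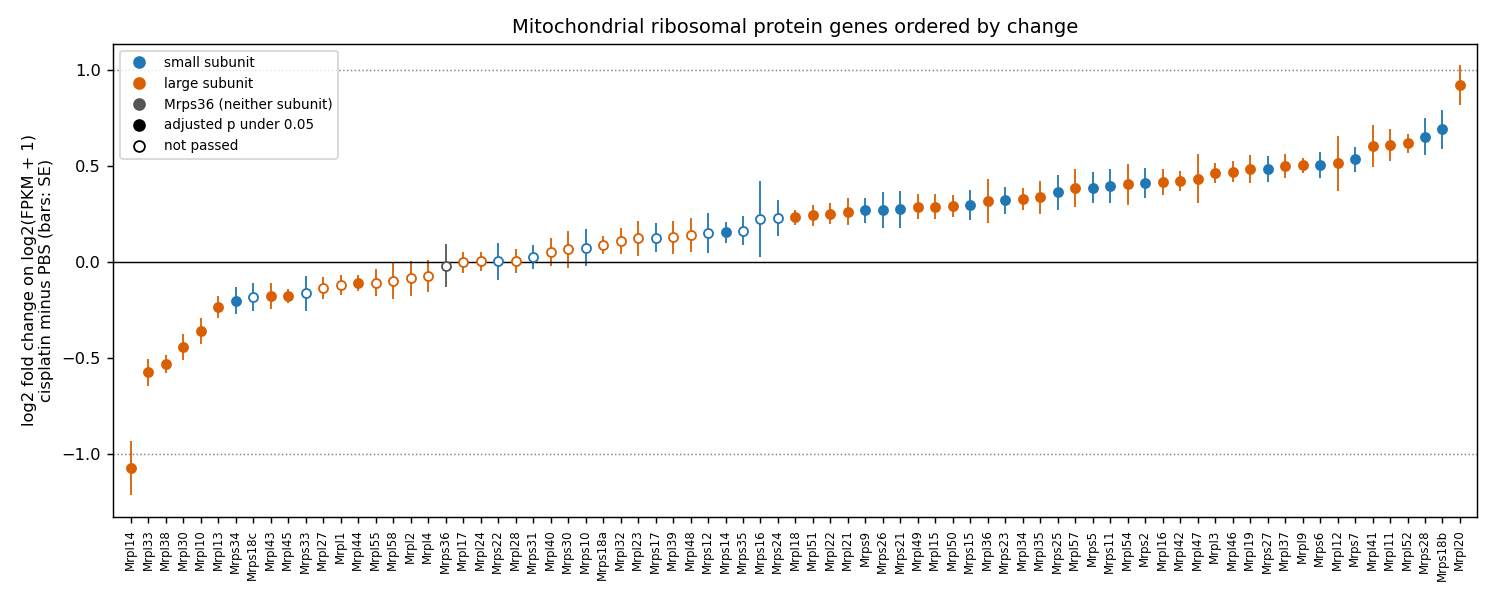
Log2 fold changes (cisplatin minus PBS, log2(FPKM + 1), bars are SE) of the 77 tested members, ordered by size and coloured by subunit, with filled points at an adjusted p under 0.05 and dotted lines at 2-fold. The 40 filled points above 0 reach 0.92 (Mrpl20) and the 10 below 0 reach -1.08 (Mrpl14); with scaling to Y-linked genes 0 members rose.

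Start site sequences were taken from RefSeq (GRCm38.p6) as windows of 300 bases, from 250 bases before to 50 bases after each start. Of the members, 69 were matched, with 75 windows. They were searched on both strands for 6 short motifs of factors known from nuclear genes of mitochondrial proteins or from promoters in general. The core bound by ETS factors such as GABPA, CCGGAAG, occurred in 34.7% of member windows, against 8.86% of all 32851 windows and 17.9% of those of tested protein-coding genes. The YY1 core ATGGCGG occurred in 17.3%, against 4.06% and 7.97%. A part of the palindromic NRF1 motif, GCATGCG, occurred in 10.7%, against 3.58% and 6.27%. Matches of different motifs can share bases. At least 1 of these 3 motifs was present in 49.3% of member windows, 14.8% of all windows and 28.3% of windows of tested protein-coding genes.

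The E-box CACGTG was found in 9.33% of member windows (7.15% of all, 9.91% of tested protein-coding genes), AAGGTCA, a half-site of ESRRA, in 5.33% (4.72% and 3.17%), and TATAAA in 6.67% (13.6% and 7.13%). The ETS core was present in 13 of 36 windows of members that rose in 2 of 7 of those that fell and in 10 of 31 windows of those that did not pass. The YY1 core was present in 9 of 36, 0 of 7 and 3 of 31, the NRF1 part in 3 of 36, 2 of 7 and 3 of 31, and the half-site of ESRRA in 4 of 36, 0 of 7 and 0 of 31. Windows of 7 members are too few to separate these shares, and no test was made. A match is a run of letters and does not show that a factor was bound.

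The windows of the members with the largest changes are shown first, written 5′ to 3′ along the gene's strand, with the matched motifs in capitals. Mrpl20, with the largest rise, holds an E-box and no other match. Mrps18b, with the largest rise in the small subunit, holds the NRF1 part at 2 places, the first of which reads on both strands, and an ETS core. Mrpl52, with the smallest SE among the 8 largest rises, holds 2 ETS cores. Mrpl14, with the largest fall, holds no match, and Mrpl33, with the second largest, holds the NRF1 part and an ETS core side by side. The window of Mrpl33 lies inside the span that the table gives the gene (chr5:31596935-31664384, plus strand).
Mrpl20 (chr4:155802628-155802927, plus strand): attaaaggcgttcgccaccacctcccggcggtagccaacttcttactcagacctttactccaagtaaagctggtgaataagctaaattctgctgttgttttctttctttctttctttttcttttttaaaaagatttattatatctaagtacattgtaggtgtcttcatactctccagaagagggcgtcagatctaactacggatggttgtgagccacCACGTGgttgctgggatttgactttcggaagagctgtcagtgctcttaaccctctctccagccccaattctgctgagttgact
Mrps18b (chr17:35916391-35916690, minus strand): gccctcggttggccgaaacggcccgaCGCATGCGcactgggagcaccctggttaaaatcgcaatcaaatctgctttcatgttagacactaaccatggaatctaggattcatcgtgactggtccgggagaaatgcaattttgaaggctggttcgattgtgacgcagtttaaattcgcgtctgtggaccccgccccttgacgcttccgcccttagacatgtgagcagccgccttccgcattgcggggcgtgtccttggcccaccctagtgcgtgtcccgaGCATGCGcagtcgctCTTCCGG
Mrpl52 (chr14:54426659-54426958, plus strand): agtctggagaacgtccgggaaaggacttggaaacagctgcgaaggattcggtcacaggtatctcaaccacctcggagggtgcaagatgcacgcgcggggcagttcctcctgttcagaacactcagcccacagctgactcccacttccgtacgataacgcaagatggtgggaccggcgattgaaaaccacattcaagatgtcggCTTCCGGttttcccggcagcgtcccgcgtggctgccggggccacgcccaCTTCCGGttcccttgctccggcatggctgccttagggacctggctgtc
Mrpl14 (chr17:45686099-45686398, plus strand): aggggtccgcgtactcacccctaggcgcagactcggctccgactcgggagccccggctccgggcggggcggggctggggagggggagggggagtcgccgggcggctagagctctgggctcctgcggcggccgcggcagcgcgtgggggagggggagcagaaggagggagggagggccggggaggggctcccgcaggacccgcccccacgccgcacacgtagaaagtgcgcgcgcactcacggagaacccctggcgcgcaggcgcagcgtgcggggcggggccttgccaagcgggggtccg
Mrpl33 (chr5:31613701-31614000, plus strand): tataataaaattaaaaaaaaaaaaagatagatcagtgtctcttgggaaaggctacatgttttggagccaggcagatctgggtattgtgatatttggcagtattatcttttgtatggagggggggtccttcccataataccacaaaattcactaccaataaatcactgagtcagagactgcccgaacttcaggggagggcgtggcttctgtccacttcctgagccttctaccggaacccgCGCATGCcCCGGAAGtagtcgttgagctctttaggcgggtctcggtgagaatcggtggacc

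The windows of Mrps11 and Mrpl46 are shown because these 2 members lie head to head on opposite strands. By the table their spans overlap at the 5′ ends, with starts 412 bases from each other. RefSeq places their starts closer together, so that the windows share bases and that of Mrpl46 lies inside the span that the table gives the gene (chr7:78775236-78783531, minus strand). The window of Mrps11 holds a YY1 core and that of Mrpl46 a TATAAA.
Mrps11 (chr7:78782881-78783180, plus strand): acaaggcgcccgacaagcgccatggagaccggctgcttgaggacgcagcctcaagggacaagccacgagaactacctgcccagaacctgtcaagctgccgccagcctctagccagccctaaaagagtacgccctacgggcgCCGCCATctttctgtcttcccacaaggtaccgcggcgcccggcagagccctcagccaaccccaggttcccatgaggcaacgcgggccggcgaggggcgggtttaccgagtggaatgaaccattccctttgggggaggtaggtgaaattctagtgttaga
Mrpl46 (chr7:78783040-78783339, minus strand): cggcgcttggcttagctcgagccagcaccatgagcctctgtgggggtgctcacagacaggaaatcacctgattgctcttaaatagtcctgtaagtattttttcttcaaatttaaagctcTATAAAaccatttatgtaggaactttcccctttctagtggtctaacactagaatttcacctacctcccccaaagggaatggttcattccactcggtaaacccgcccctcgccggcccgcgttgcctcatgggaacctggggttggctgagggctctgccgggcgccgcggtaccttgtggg

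Large subunit genes held the extremes in both directions. Of the 50 tested, 25 rose (50%, against 32.9% of all tested genes), 9 fell (18%, against 35.1%) and 16 did not pass, with a median log2 fold change of 0.19, whereas 0 rose with scaling to Y-linked genes. Mrpl20, the counterpart of a bacterial protein that takes part early in building the large subunit, measured 10.02, 9.61 and 12.9 FPKM in the PBS libraries and 20.8, 20.9 and 22.1 FPKM in the cisplatin libraries. The groups did not overlap, and its log2 fold change was 0.92 with an SE of 0.10 (adjusted p = 0.000204). Mrpl52, a mitochondria-specific protein, measured 17.9, 17.4 and 17.7 FPKM in the PBS libraries and 25.98, 28.01 and 29.3 FPKM in the cisplatin libraries, again without overlap, with a log2 fold change of 0.62 with an SE of 0.050 (adjusted p = 3.8e-05). The lowest adjusted p among the members belonged to Mrpl9 (named after its values were seen), whose log2 fold change was 0.51 with an SE of 0.039 (adjusted p = 3.0e-05).

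The proteins of the stalk, the flexible arm of the large subunit that recruits translation factors, did not move together. Mrpl12, which forms the arm and is also known to bind the mitochondrial RNA polymerase, measured 13.8, 12.8 and 10.5 FPKM in the PBS libraries and 14.8, 18.9 and 20.8 FPKM in the cisplatin libraries. Mrpl11, at the base of the stalk, measured 5.49, 4.63 and 5.46 FPKM in the PBS libraries and 9.16, 8.43 and 7.77 FPKM in the cisplatin libraries. Both rose with no overlap of the groups, by 0.51 (adjusted p = 0.0152) and 0.61 (adjusted p = 0.000515) on the log2 scale. Mrpl10, which anchors Mrpl12 to the ribosome, measured 25.7, 29.2 and 24.5 FPKM in the PBS libraries and 20.1, 20.7 and 20.2 FPKM in the cisplatin libraries. It fell, also without overlap, with a log2 fold change of -0.36 with an SE of 0.066 (adjusted p = 0.00235). Mrpl41, a mitochondria-specific protein also studied for its link to p53, measured 19.2, 14.8 and 14.4 FPKM in the PBS libraries and 24.8, 23.4 and 26.5 FPKM in the cisplatin libraries and rose by 0.61 (adjusted p = 0.00223).

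Mrpl14 was the member with the largest difference of all. Its protein lies at the face that meets the small subunit and is the docking site of the factor Malsu1, which keeps unfinished large subunits from joining. It measured 36.6, 28.6 and 36.7 FPKM in the PBS libraries and 12.7, 16.5 and 17.7 FPKM in the cisplatin libraries, so that every cisplatin library was below every PBS library, and its log2 fold change was -1.08 with an SE of 0.14 (adjusted p = 0.000456). Without cisplatin replicate 1 the value was -0.94, short of 2-fold. Of its exonic bases, 11.2% also belong to Tmem63b on the other strand, a membrane channel gene that fell too, by 0.75 on the log2 scale. Malsu1 itself, named here for this link after its values were seen, had a log2 fold change of -0.47 that did not pass the test (adjusted p = 0.0507).

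The next falls belonged to Mrpl33, a small protein with a bacterial counterpart, and to Mrpl38, a mitochondria-specific protein of the central protuberance of the large subunit. Mrpl33 measured 7.54, 7.55 and 7.88 FPKM in the PBS libraries and 5.32, 4.80 and 4.36 FPKM in the cisplatin libraries. Mrpl38 measured 22.5, 22.6 and 22.8 FPKM in the PBS libraries and 14.6, 15.1 and 16.4 FPKM in the cisplatin libraries. In neither did the groups overlap, and the log2 fold changes were -0.57 with an SE of 0.071 (adjusted p = 0.000324) and -0.53 with an SE of 0.049 (adjusted p = 7.1e-05). Mrpl30, which has a bacterial counterpart, measured 15.3, 15.8 and 15.1 FPKM in the PBS libraries and 11.4, 9.97 and 11.9 FPKM in the cisplatin libraries, with a log2 fold change of -0.44 with an SE of 0.066 (adjusted p = 0.000858). Mrpl13, which also has one, fell with a log2 fold change of -0.23 (adjusted p = 0.00968), and its groups did not overlap.

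Further large subunit members with known special roles changed little. Mrpl45, which attaches the ribosome to the inner membrane near the protein insertion machinery, fell with a log2 fold change of -0.18 (adjusted p = 0.00334), and Mrpl44, which resembles RNase III, with -0.11 (adjusted p = 0.0450). Mrpl43 fell too, with -0.18 (adjusted p = 0.0475), although 33.4% of its exonic bases are shared with Twnk, the mitochondrial DNA helicase gene. That share is of the 1520 exonic bases in GENCODE release M21, whereas the table lists 1213 bases, so it may differ for the values used. Mrpl18, whose bacterial counterpart binds 5S ribosomal RNA, rose, with 0.23 (adjusted p = 0.00182). Values for Mrpl58, a peptidyl-tRNA hydrolase that became part of the ribosome (-0.10, adjusted p = 0.386), Mrpl2 (-0.086, adjusted p = 0.444), Mrpl48 (0.14, adjusted p = 0.205) and Mrps30 (0.066, adjusted p = 0.574) did not pass the test. The falls of Mrpl43 and Mrpl44 lay near the threshold, and leaving out a library ended the call of Mrpl43 in 6 of 6 cases and that of Mrpl44 in 5 of 6.

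Of the 26 small subunit genes tested, 15 rose (57.7%, against 32.9% of all tested genes), 1 fell (3.85%, against 35.1%) and 10 did not pass, whereas 0 rose with scaling to Y-linked genes. They had a median log2 fold change of 0.27. Mrps18b measured 5.19, 6.64 and 6.95 FPKM in the PBS libraries and 11.3, 10.5 and 10.2 FPKM in the cisplatin libraries. Mrps28, which resembles bacterial S1, measured 10.3, 8.28 and 10.3 FPKM in the PBS libraries and 14.3, 16.8 and 16.01 FPKM in the cisplatin libraries. Mrps7, which organises the head of the small subunit, measured 14.7, 13.3 and 13.5 FPKM in the PBS libraries and 19.3, 22.1 and 20.05 FPKM in the cisplatin libraries. In all 3 the groups did not overlap, and the log2 fold changes were 0.69 with an SE of 0.10 (adjusted p = 0.000754), 0.65 with an SE of 0.10 (adjusted p = 0.000815) and 0.53 with an SE of 0.064 (adjusted p = 0.000277).

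Mammals have 3 relatives of the bacterial protein S18, and their genes gave different values. In the counts by descent, Mrps18b is placed with the mitochondria-specific members and the other two with those that have a bacterial counterpart. Mrps18b rose, as given above, with the reservation that 30.5% of its exonic bases overlap the antisense gene Gm16279, which was itself at 0.324 FPKM with PBS and 0.71 FPKM with cisplatin on average. Mrps18a, the relative found in the large subunit, measured 7.17, 6.99 and 6.76 FPKM in the PBS libraries and 7.60, 7.33 and 7.499 FPKM in the cisplatin libraries, just above them without overlap, with a log2 fold change of 0.088 (adjusted p = 0.131). Mrps18c measured 14.7, 12.5 and 13.4 FPKM in the PBS libraries and 12.8, 11.4 and 11.2 FPKM in the cisplatin libraries, overlapping groups, with -0.18 (adjusted p = 0.0639). Neither of these passed the test, and the differences between the 3 relatives were not tested.

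Mrps27, a pentatricopeptide repeat protein that binds RNA, rose with a log2 fold change of 0.49 (adjusted p = 0.000595), Mrps21 with 0.27 (adjusted p = 0.0389) and Mrps25 with 0.36 (adjusted p = 0.00951). Mrps25 shares 69.8% of its exonic bases with Nr2c2, which also rose, by 0.15. Mrps12, the counterpart of the bacterial protein that monitors decoding (0.15, adjusted p = 0.235), Mrps22 (0.0041, adjusted p = 0.974) and Mrps35 (0.16, adjusted p = 0.0933) did not pass. Mrps34 was the small subunit member that fell, with -0.20 (adjusted p = 0.0365), but 77.8% of its exonic bases are shared with Mapk8ip3 and Nme3, and Mapk8ip3 fell by 0.76. Once a trend on GC content was removed, the log2 fold change of Mrps34 was 0.10, and leaving out a library ended its call in 4 of 6 cases. The call of Mrps21 was lost when any of the 3 cisplatin libraries was left out. Mrps36, outside the ribosome, had -0.020 (adjusted p = 0.886).

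**Figure D2:**
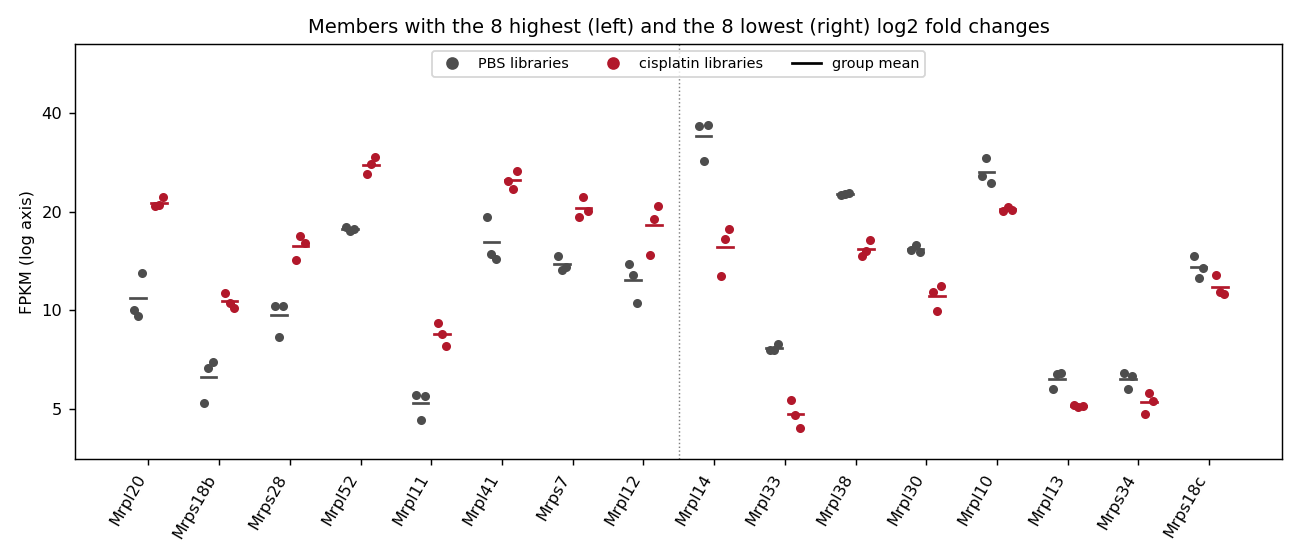
FPKM (log axis) in each of the 3 PBS and 3 cisplatin libraries, with group means as lines, for the members with the 8 highest and the 8 lowest log2 fold changes. The groups overlap only for Mrps18c among the 16 members, which did not pass the test; with scaling to Y-linked genes the 8 members on the left had log2 fold changes of -0.42 to -0.014.

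Summed over members on the scale of the deposited values, the small subunit rose by a larger share than the large subunit. With scaling to Y-linked genes both fell, with median log2 fold changes of -0.62 (small) and -0.66 (large). Small subunit levels summed to 206 to 229 FPKM in PBS libraries and 269 to 271 FPKM in cisplatin libraries. Large subunit levels summed to 632 to 669 FPKM and 693 to 706 FPKM. The ratio of the small to the large sum was 0.326 to 0.347 with PBS and 0.381 to 0.388 with cisplatin, without overlap, and is unaffected by a factor applied to a whole library. These sums were not tested.

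**Figure D3:**
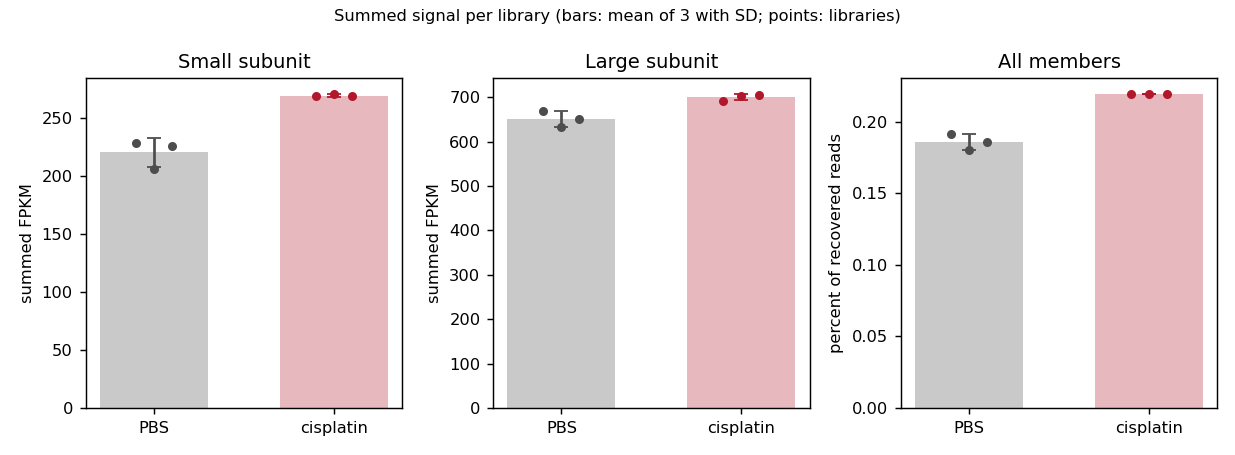
Summed FPKM of small and large subunit members, and the percent of recovered reads taken by all members, as means of 3 libraries with SD and a point for each library. The cisplatin libraries lie above the PBS libraries in all 3 panels, at 0.219% of reads against 0.181% to 0.192%; the sums are relative to the other RNA of a library, and with scaling to Y-linked genes the members' median log2 fold change was -0.66.

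The members were also split by descent, level and overlap with other genes. Shares stand against 32.9% of all tested genes that rose and 35.1% that fell. Of 47 tested members with a bacterial counterpart, 25 rose and 5 fell, with a median log2 fold change of 0.23. Of 29 mitochondria-specific members, 15 rose and 5 fell, with a median of 0.24. Among those with a bacterial counterpart, 10 of 16 in the small subunit rose (62.5%) and 0 fell, and 15 of 31 in the large subunit rose (48.4%) and 5 fell (16.1%). By level, 19 of 39 members with a mean of at least 10 FPKM rose (48.7%) and 7 fell (17.9%), and 21 of 38 below that rose (55.3%) and 3 fell (7.89%). Of the 45 members that share no exonic base with another gene in GENCODE release M21, 22 rose and 3 fell, with a median log2 fold change of 0.16. Of the 9 tested members that share over 20% of their exonic bases, 5 rose and 2 fell.

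Members often start close to another protein-coding gene on the opposite strand. Within 1000 bases, 33 of the 77 tested members (42.9%) had such a partner, against 1861 of 11335 tested protein-coding genes (16.4%). These formed 32 distinct pairs, and 28 of the 33 members had a partner that was itself tested. In 14 of the 27 distinct pairs with both genes tested (51.9%) both passed the test, 8 in the same direction (57.1% of the 14) and 6 in opposite directions. Among all 787 such pairs of tested protein-coding genes, 45.6% had both genes pass, 65.5% of these in the same direction. In 5 of the 14 the genes share exonic bases on GENCODE release M21 (Mrpl14 with Tmem63b, Mrpl44 with Wdfy1, Mrpl46 with Mrps11, Mrpl18 with Tcp1 and Mrpl21 with Ighmbp2), so their values are less certain. Of the other 9 pairs, 5 moved in the same direction and 4 in opposite directions. Pairs are named for this, after the values were seen. Mrpl46 and Mrps11, a pair within the set, both rose, with log2 fold changes of 0.47 and 0.40. Mrps18b rose with Ppp1r10, a regulatory subunit of protein phosphatase, at 1.08 (adjusted p = 5.9e-06), and Mrpl41 with Pnpla7, a lysophospholipase gene, at 1.20 (adjusted p = 3.4e-06). Mrpl57 rose by 0.39 beside Ska3, of the mitotic spindle, at 0.43, and Mrps27 by 0.49 beside Ptcd2, another pentatricopeptide repeat gene, at 0.46.

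The 3 pairs that both fell were Mrpl14 with Tmem63b, Mrpl44 with Wdfy1 and Mrpl30 with Mitd1, whose log2 fold change was -1.23 (adjusted p = 1.7e-05). In the opposite pairs the member rose and the partner fell in 5, namely Mrpl18 with Tcp1 (-0.12), Mrpl21 with Ighmbp2 (-0.29), Mrpl49 with Fau (-0.34), Mrpl51 with Ncapd2 (-0.20) and Mrpl54 with Apba3 (-0.53). Mrps34 fell while Eme2 rose (0.47). Tested partners such as Klc4, opposite Mrpl2, had changes of their own (-1.02, adjusted p = 2.9e-06) while the member did not pass.

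**Figure D4:**
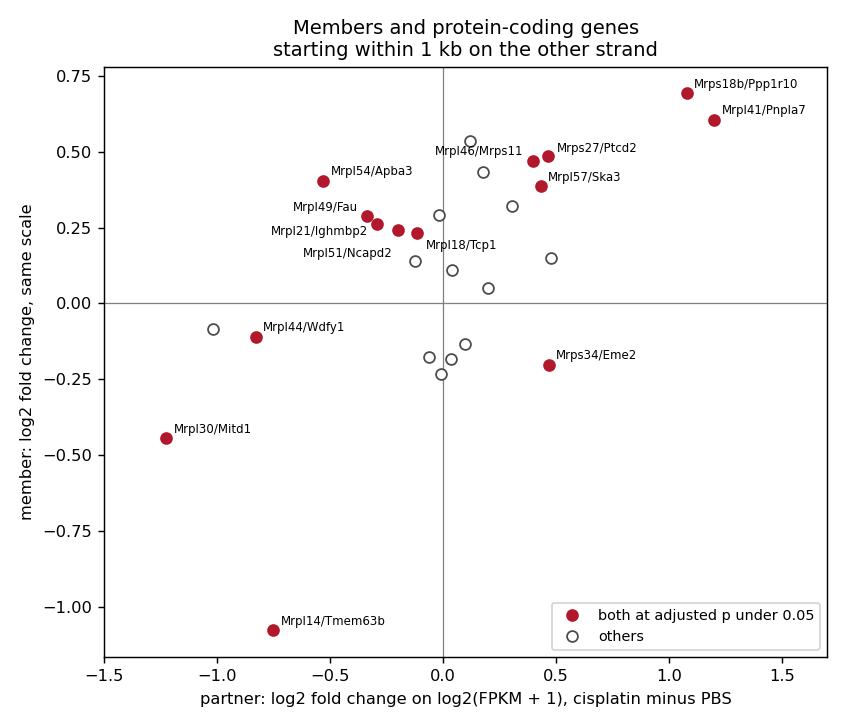
Log2 fold change (cisplatin minus PBS, log2(FPKM + 1)) of members against that of the protein-coding gene starting within 1000 bases on the opposite strand, 1 point a pair, with filled points where both genes passed the test. Of the 14 filled points, 8 lie in the quadrants of equal sign and 6 in those of opposite sign; scaling to Y-linked genes moves the median of all genes by -0.83 on both axes.

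Other genes of mitochondrial translation gave mixed counts. Of 5 mitoribosomal proteins with other names, Aurkaip1 (0.42, adjusted p = 0.000692) and Chchd1 (0.33, adjusted p = 0.00335) rose and Dap3, a GTP-binding protein of the small subunit, fell (-0.18, adjusted p = 0.0197). Of 27 tested genes for assembly of the mitoribosome and modification of its RNA, 11 rose (40.7%, against 32.9% of all tested genes) and 3 fell (11.1%, against 35.1%), with a median log2 fold change of 0.14 that ranged from 0.096 to 0.32 over the other settings except Y-linked scaling. Rcc1l (0.74, adjusted p = 0.000798), the RNA methyltransferase gene Mrm3 (0.72, adjusted p = 6.8e-05) and Fastkd2 (0.71, adjusted p = 0.000225) had the largest changes. Of 14 translation factors, 4 rose (28.6%, against 32.9% of all tested genes) and 1 fell (7.14%, against 35.1%). Their median of 0.096 was 0.21 with quantile normalisation and 0.26 with the length trend removed. The largest changes were those of Lrpprc, which stabilises mitochondrial mRNAs (0.58, adjusted p = 0.000108), and the elongation factors Gfm1 (0.42, adjusted p = 0.000314) and Tsfm (0.35, adjusted p = 0.0311).

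The template side of the same system was measured too. Of 21 genes for mitochondrial transcription and RNA processing, 9 rose (42.9%, against 32.9% of all tested genes) and 4 fell (19.0%, against 35.1%). Their median of 0.031 was -0.0086 without cisplatin replicate 1, 0.099 without cisplatin replicate 3, 0.13 with quantile normalisation and 0.15 with the length trend removed. Named by size were Fastkd3 (0.85, adjusted p = 0.000898) and the transcription factor Tfb2m (0.73, adjusted p = 1.5e-05), which rose, and Grsf1, of the RNA granules, which fell (-0.72, adjusted p = 9.2e-05). Of the 12 tested mRNAs encoded by mitochondrial DNA, 7 rose (58.3%) and 1 fell (8.33%), with a median of 0.46. mt-Nd3 rose by 1.24 (adjusted p = 0.000768), mt-Nd1 by 0.81 and mt-Nd2 by 0.67, and mt-Co1 fell, with -0.33 (adjusted p = 0.00382). RNA was selected by poly-T beads, so these values also depend on their tails. Among 10 tested regulators of mitochondrial biogenesis, 5 rose (50%) and 0 fell (median 0.25), with the largest values for the coactivator Pprc1 (0.97, adjusted p = 2.2e-05), Myc (0.65, adjusted p = 3.0e-05) and Hcfc1 (0.60, adjusted p = 0.000227). The filter on low values left out 3 regulators of this list. Ppargc1a, the coactivator PGC-1alpha, missed it narrowly and measured 1.32, 1.24 and 0.959 FPKM in the PBS libraries and 0.517, 0.379 and 0.312 FPKM in the cisplatin libraries, and Perm1 measured 1.01, 1.20 and 0.959 FPKM in the PBS libraries and 0.618, 0.812 and 0.900 FPKM in the cisplatin libraries. In both, every cisplatin library was below every PBS library. Mycn lay the other way, at 0.412, 0.370 and 0.646 FPKM in the PBS libraries and 0.874, 1.28 and 1.10 FPKM in the cisplatin libraries.

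Cytosolic ribosomal proteins and nuclear-encoded genes of the respiratory chain were set beside the members, of which 51.9% rose and 13.0% fell (all tested genes 32.9% and 35.1%). Of 76 tested cytosolic ribosomal protein genes, 44 rose (57.9%) and 3 fell (3.95%), with a median log2 fold change of 0.25. Of 79 tested nuclear-encoded genes of oxidative phosphorylation (OXPHOS), 22 rose (27.8%) and 14 fell (17.7%), with a median of 0.068. No test between these lists was made. Markers of dividing cells, measured beside them, rose in 8 of 14 genes and fell in 4, with summed levels of 360 to 366 FPKM with PBS and 399 to 414 FPKM with cisplatin, and their part in the members' change was not tested.

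**Figure D5:**
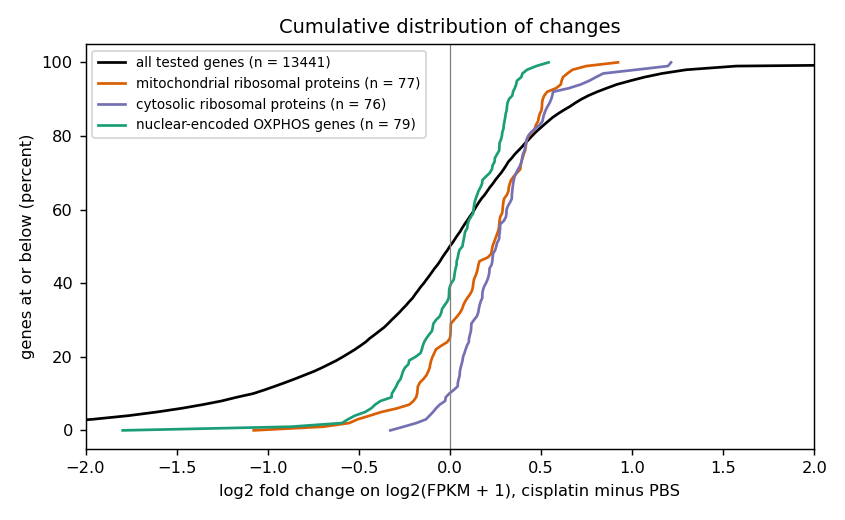
Cumulative percent of genes at or below each log2 fold change (cisplatin minus PBS, log2(FPKM + 1)) for all 13441 tested genes, 77 members, 76 cytosolic ribosomal protein genes and 79 nuclear-encoded OXPHOS genes. The medians are -0.0011, 0.23, 0.25 and 0.068 in that order; with scaling to Y-linked genes they become -0.83, -0.66, -0.72 and -0.89.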

How the data were processed

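RNA sequencing data of 6 libraries (3 cisplatin, 3 PBS, grouped by the sample labels) were used. The deposited values are FPKM, computed by the authors from reads counted per gene. The submitters' processing notes name fastp, HISAT2 2.0.5, featureCounts 1.5.0-p3 and the build mm10, whereas the study's methods name LifeScope, and DESeq2 for the authors' own tests. Whether counting used strand is not given in the sources used here, so values of overlapping or antisense genes and of genes with pseudogene copies (Mrpl23, Mrpl48, Mrps36) are less certain.

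FPKM multiplied by gene length gave whole reads within 0.05 for 100% of values worth under 200 reads. Coordinates are those of the table. Exons were compared with GENCODE release M21 of GRCm38, in which 73 of the 78 members had the same coordinates. The 13441 genes that reached 1 FPKM in 3 or more of the 6 libraries entered the test as log2(FPKM + 1), with limma 3.58.1 (lmFit, eBayes with trend) in R 4.3.3, with Benjamini-Hochberg adjustment. The fit was tested on simulated data. Libraries of a group differed by more than sampling noise (chi-square per degree of freedom 2.20 to 5.21), so none was counted as a duplicate.

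Named with values were the 8 members with the highest and the 8 with the lowest log2 fold change, the 3 with the highest and the 3 with the lowest mean level, members past 2-fold, untested members and a list of members with special roles, and the 3 largest passing changes of each related or marker list, of which 1 is not reported here. Outside this rule, and chosen after their values were seen, Mrpl9, Malsu1, mt-Co1, Ppargc1a, Perm1, Mycn, pseudogenes of members, genes opposite members and the members of those pairs are also named. The rule for the members uses symbols and biotype alone, but this gene family, the named members and the lists were chosen with earlier results of these data known. Alternatives covered the pseudocount, filters, scalings, limma voom on recovered reads, a replicate block, trends on gene length and GC content, and leaving out each library.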

Additional observations from a re-analysis of the deposited data

How the results depend on the processing

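Of the 68 tested genes that the naming rule gives (58 under the filter of 5 FPKM, which the other 10 did not pass), all but 1 kept their direction, or stayed uncalled, under each setting that kept all libraries except scaling to Y-linked genes, in the 6 fits that each leave out a library and after a loess trend on GC content was removed, which was added after the data were seen. The exception was Mrps34, at 0.10 in that last fit. At most 6 of the named genes lost their call and at most 3 gained one in any of these fits to all libraries, and the 6 leave-out fits together gave 25 losses and 3 gains. Apart from Y-linked scaling, medians of lists ranged from 0.21 to 0.39 for cytosolic ribosomal proteins, 0.035 to 0.16 for OXPHOS genes, 0.19 to 0.40 for biogenesis regulators and 0.31 to 0.57 for mitochondrially encoded mRNAs. The cause was not tested for any of the shifts below.

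The alternative that turned directions was scaling to Y-linked genes. It gave 0 members higher and 73 lower, 16 of them by at least 2-fold (all tested genes 3.71%, 82.6% and 38.5%), and medians of -0.66 for all members, -0.62 for the small and -0.66 for the large subunit. Log2 fold changes of members under it were Mrpl12 -0.42, Mrps7 -0.41, Mrpl41 -0.34, Mrpl11 -0.26, Mrpl52 -0.33, Mrps28 -0.27, Mrps18b -0.20, Mrpl20 -0.014, Mrps21 -0.69, Mrps35 -0.54, Mrpl48 -0.58, Mrps25 -0.35, Mrpl18 -0.72, Mrps12 -0.78, Mrps22 -0.81, Mrps27 -0.39, Mrps30 -0.70 and Mrps18a -0.79. Other genes had Aurkaip1 -0.53, Chchd1 -0.62, Rcc1l -0.067, Mrm3 -0.032, Fastkd2 -0.053, Lrpprc -0.34, Gfm1 -0.51, Tsfm -0.49, Tfb2m -0.14, Myc -0.31, Hcfc1 -0.37, mt-Nd1 -0.19, mt-Nd2 -0.33, Eif2s3y -0.25, Rrm2 -0.10 and Mcm5 -0.41. Of the 42 named genes that had risen, 14 stayed above 0 and 8 of these still passed: Mpo 1.66, Prtn3 1.54, Ctsg 1.33, Mertk 0.67, Ms4a1 0.62, Lyz2 0.58, Itgam 0.44 and Ddx3y 0.23. Those that did not pass included mt-Nd3 0.27, Pprc1 0.069 and Fastkd3 0.080. Medians of lists were neutrophil and progenitor markers 0.80, which stayed above 0, ID8 and mesothelial markers -3.03, mitoribosomal proteins with other names -0.84, mitochondrial transcription and RNA processing -0.66, mitoribosome assembly and rRNA modification -0.67, mitochondrial translation factors -0.77, regulators of mitochondrial biogenesis -0.61, mitochondrially encoded mRNAs -0.53, macrophage markers -0.055, Y-linked genes -0.00059, lymphocyte markers -0.10, erythroid markers -0.69, dividing-cell markers -0.72, cytosolic ribosomal proteins -0.72 and nuclear-encoded OXPHOS genes -0.89. The Y-linked genes set this scale, so their own value tests nothing.

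Quantile normalisation left 47 members higher and 6 lower (all tested genes 39.8% and 29.8%), with medians of 0.33 (all), 0.35 (small) and 0.29 (large). Scaling to total recovered reads gave medians of 0.32, 0.34 and 0.26, with 1 member higher and 0 lower by 2-fold (10.2% of all tested genes lower by 2-fold). Removing the trend on gene length left 49 higher, 1 of them by 2-fold, and 5 lower (all tested genes 41.2% and 28.7%), with medians of 0.31, 0.37 and 0.27. Removing that on GC content left 48 higher and 7 lower (all tested genes 40.8% and 30.5%), with medians of 0.33, 0.37 and 0.28. By 2-fold 1 was higher and 0 lower (9.52% of all tested genes lower by 2-fold). Quantile normalisation moved the median of all genes to 0.10, removal of the length trend to 0.11 and removal of the GC trend to 0.096. A filter of 5 FPKM gave a large subunit median of 0.24, over fewer genes. Leaving out a library in turn gave 36 to 40 members higher, 7 to 11 lower and 0 to 1 in each direction by 2-fold. In these fits 29.8% to 31.3% of all tested genes were higher and 33% to 34% lower, with 11.3% to 11.4% lower by 2-fold. The members' medians were 0.19 to 0.25 (all), 0.20 to 0.31 (small) and 0.17 to 0.21 (large). The rise of 1 member by 2-fold, Mrpl20, came without PBS replicate 3, and the loss of the 2-fold fall of Mrpl14 without cisplatin replicate 1.

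Equal replicate numbers did not pair the libraries: the deviations of same-numbered libraries from their group means correlated at -0.104, -0.0857 and -0.0236, and the labels tie the numbers to no batch. With the replicate number as a block, 38 members were higher (38 of the 40) and 8 lower (7 of the 10), against 30.8% and 33.4% of all tested genes. With 3 libraries a group, small changes may not have been detectable.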

Other observations

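Of the other lists measured, 4 of 4 Y-linked genes rose (median log2 fold change 0.70), as did 5 of 6 tested lymphocyte markers (median 0.72). In the marker lists the largest changes past the limma test were, as log2 fold changes, Lyz2 1.57, Itgam 1.42 and Mertk 1.08 for macrophages, Mpo 2.63, Prtn3 2.499 and Ctsg 2.31 for neutrophils and progenitors, and Krt19 -3.50, Wt1 -3.14 and Krt8 -2.60 for ID8 and mesothelial cells. For lymphocytes they included Ms4a1 1.58 and Cd79a 1.19, for the Y chromosome Ddx3y 1.15, Kdm5d 0.73 and Eif2s3y 0.68, and for dividing cells Rrm2 0.87, Ccnb2 -0.73 and Mcm5 0.55. With scaling to Y-linked genes the values of Eif2s3y, Rrm2 and Mcm5 were below 0. The log2 fold changes of the 4 tested erythroid markers, 0.059 to 0.41, did not pass the limma test. Among processed pseudogenes of members, Mrpl23-ps1 lay between 1.67 and 3.65 FPKM and Mrpl48-ps between 0.958 and 1.71 FPKM over the 6 libraries, with overlapping groups. Mrps36-ps1 measured 0.554, 0.210 and 0.632 FPKM with PBS and 0.961, 1.39 and 1.78 FPKM with cisplatin, without overlap. Mrps36-ps2 measured 0.731, 0 and 0 FPKM with PBS and 0.381, 2.37 and 0.980 FPKM with cisplatin, with overlap, and Mrps36-ps3 was listed at 0 in each library.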
